A study of Mus musculus with 6 samples.

Results

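The 10 genes described here are read as signs of erythroid or megakaryocyte priming when they are found in stem and progenitor cells. They are the transcription factor genes Gata1 and Klf1, the receptor gene Epor, the carbonic anhydrase genes Car1 and Car2, the globin genes Hba-a1 and Hbb-bs, and the megakaryocyte genes Itga2b, Pf4 and Vwf. They were chosen by name from the 49315 genes counted in the files, and all 10 were found through their gene identifiers in the GENCODE annotation of GRCm38. No measured value entered the choice, but earlier results of these data were known when it was made.

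The study compared hematopoietic stem and progenitor cells of mice that lack ING4, a chromatin-associated tumor suppressor protein, with those of WT C57BL/6 controls. Bulk RNA-seq was done on long-term HSCs (LT-HSCs, LSK CD48- CD34- CD150+), short-term HSCs (ST-HSCs, LSK CD48- CD34+ CD150+) and multipotent progenitors (MPPs, LSK CD48- CD34+ CD150-), where LSK means lineage-negative, Sca1-positive and cKit-positive. Marrow of 8 to 10 mice was pooled and lineage-depleted, and the 3 populations were then sorted separately for both genotypes. Each population of each genotype gave 1 library, so there were 3 WT and 3 ING4-/- libraries. Whether each population had its own pool is not stated, so the 3 libraries of a genotype may share mice. Both genotypes were CD45.2, and the WT controls were 8 to 12 weeks old. ING4-/- mice given fluorouracil in the study were also 8 to 12 weeks old. The age of the ING4-/- mice used for RNA-seq and the structure of their Ing4 allele were not given in the sources used here.

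In the textbook view, a progenitor that turns toward red cells or platelets first switches on Gata1, whose protein binds GATA sites and serves both lineages, while Klf1 binds CACCC-type sites and drives the erythroid branch. Epor carries the erythropoietin signal that keeps erythroid progenitors alive, and globins and carbonic anhydrases fill the maturing red cell. Itga2b, Pf4 and Vwf encode an integrin, a chemokine and an adhesion protein of megakaryocytes and platelets, and they are also read in stem cells biased toward platelets.

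The promoters of the GATA- and KLF-type genes are shown first because Gata1 and Klf1 are themselves among the genes measured. Of the 10 genes, 7 matched a RefSeq promoter window (GRCm38.p6). Car1, Car2 and Vwf did not match and are named only. Each run below is the gene strand, 5' to 3', from the 250 bases before the start that RefSeq gives, ended where the first exon annotated by GENCODE begins. For Gata1, Klf1, Itga2b, Hba-a1 and Hbb-bs the GENCODE gene starts farther upstream, so the window lies wholly (Gata1) or partly (the others) inside the gene's span. Capitals mark the GATA motifs AGATAA or TGATAA and the motif CACCC, and on the opposite strand the GATA motifs read TTATCT or TTATCA. The motifs do not overlap one another. The stretches are Gata1 at chrX:7967911-7968160 on the minus strand, Klf1 at chr8:84901732-84901927 on the plus strand, Epor at chr9:21963577-21963826 on the minus strand, Hba-a1 at chr11:32283422-32283510 on the plus strand, Hbb-bs at chr7:103828097-103828178 on the minus strand, and Pf4 at chr5:90772185-90772434 on the plus strand, the last shown as a window with no match.
Gata1: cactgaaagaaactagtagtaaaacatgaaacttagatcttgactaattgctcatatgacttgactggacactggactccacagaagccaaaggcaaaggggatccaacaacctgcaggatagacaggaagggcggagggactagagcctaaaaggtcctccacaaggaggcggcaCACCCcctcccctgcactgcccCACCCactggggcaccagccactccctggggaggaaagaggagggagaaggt
Klf1: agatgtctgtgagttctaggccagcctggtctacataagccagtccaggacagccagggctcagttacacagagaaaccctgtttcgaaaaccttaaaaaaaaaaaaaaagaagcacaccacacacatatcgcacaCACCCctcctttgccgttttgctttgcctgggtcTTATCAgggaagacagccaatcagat
Epor: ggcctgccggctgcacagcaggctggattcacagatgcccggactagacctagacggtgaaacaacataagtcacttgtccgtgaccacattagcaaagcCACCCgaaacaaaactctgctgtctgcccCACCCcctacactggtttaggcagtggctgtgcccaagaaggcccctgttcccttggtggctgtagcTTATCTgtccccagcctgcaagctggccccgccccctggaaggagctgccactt
Hba-a1: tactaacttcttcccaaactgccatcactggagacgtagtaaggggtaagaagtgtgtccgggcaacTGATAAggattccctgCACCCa
Hbb-bs: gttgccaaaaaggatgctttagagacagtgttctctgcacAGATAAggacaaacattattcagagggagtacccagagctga
Pf4: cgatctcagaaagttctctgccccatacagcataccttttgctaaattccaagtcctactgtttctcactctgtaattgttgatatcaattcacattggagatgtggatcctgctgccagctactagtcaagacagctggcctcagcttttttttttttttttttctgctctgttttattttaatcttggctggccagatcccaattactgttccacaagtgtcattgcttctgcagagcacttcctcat

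A GATA motif of this spelling, on either strand, stood in the windows of 4 of the 7 matched genes (Klf1, Epor, Hba-a1 and Hbb-bs) and in 16.6% of 32851 mouse promoter windows of the same length. CACCC stood in 5 of the 7 (the same 4 and Gata1) and in 52.0% of all windows. Both motifs stood together in 4 of the 7 and in 7.11% of all windows. In Hbb-bs the GATA motif began 210 bases before the start, and the CACCC began 90 bases before it, inside an upstream exon and beyond the stretch printed. In Hba-a1 they began 183 and 167 bases before the start, and another CACCC lay 60 bases before it, also beyond the stretch printed. The windows of Pf4 and Itga2b held neither. In the Itga2b window, which is not printed, 180 bases are exon of that gene and only 11 lie before its first exon. These matches describe letters and say nothing of binding in these cells.

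Sequencing depth and background split by genotype. Total counts were 7839326 to 9363442 in the WT libraries and 35596876 to 39192588 in the ING4-/- libraries. As a measure of background, 1429 olfactory and vomeronasal receptor genes, which blood cells are not known to use, held 18.1 to 22.7 counts per kb of exon in WT and at most 0.0853 in ING4-/-. Spread over all exons, that density would make up 22.6% to 33.4% of WT counts and at most 0.0280% of ING4-/- counts. Depth, background and genotype cannot be told apart. Beside some of the WT counts below stands the count that the background density of the same library would give a gene of that exonic length, or the ratio to it.

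The targeted gene went with its labels in direction. Here and below, the 3 values of a genotype are listed in the order LT-HSC, ST-HSC and MPP. In WT, Ing4 had 247, 162 and 247 counts, where background would give 119, 121 and 96.3. It had 0, 24 and 76 counts in ING4-/-, and its log2 fold change was -4.49 (SE 1.56, edgeR adjusted p = 0.0373). Of its exonic bases, 34.9% also belong to the transcript Gm44597 on the same strand. Kit, which the sort selects for, was at 378 to 999.8 CPM (counts per 1e+06 counts) in the 6 libraries. Cd34 rose in order from LT-HSCs through ST-HSCs to MPPs in both genotypes, from 109 to 714 CPM in WT and from 304 to 1559 in ING4-/-. Cd48, an excluded surface marker, reached 127 CPM in ING4-/- MPPs.

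Levels below are TMM-normalized CPM, in which the library total is scaled by the bulk of the genes. The genotype comparison set the 3 ING4-/- libraries against the 3 WT libraries in edgeR, and a gene was called at an adjusted p under 0.05 with an absolute log2 fold change over 1. The 3 populations of a genotype stood in for replicates, so the spread holds the differences between populations, and p-values measure only the spread between these pooled samples. Bulk RNA does not tell apart fewer cells of a type and less RNA in each cell.

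Of the 10 genes, 4 were called higher in ING4-/- and 0 lower, namely the globin genes Hba-a1 and Hbb-bs, the carbonic anhydrase gene Car2 and the platelet chemokine gene Pf4. Over all 31001 genes tested by edgeR, 7.98% passed as higher and 56.7% as lower (64.6% in all), with a median log2 fold change of -6.85 over all of them. In 8 of the 10 each population was higher in ING4-/- than in WT, and Car1 and Vwf were the other two. The share of all genes with that pattern was not computed, so this count cannot be weighed. For Klf1 the MPP ratio was only 1.04.

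**Figure D1:**
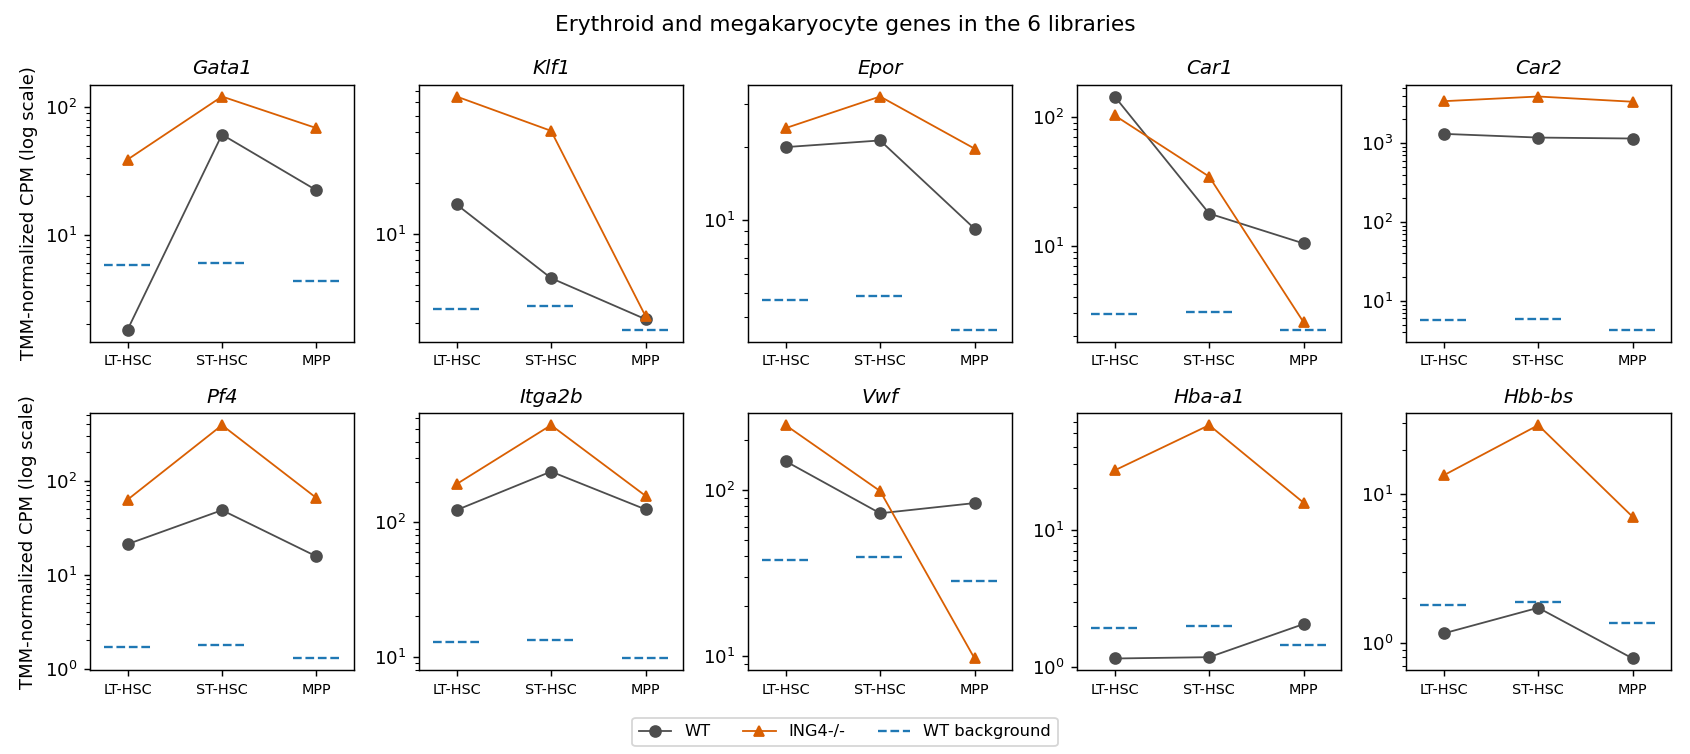
TMM-normalized CPM (log scale, a separate scale in each panel) of the 10 genes in LT-HSCs, ST-HSCs and MPPs, 1 library per point, WT as grey circles and ING4-/- as orange triangles. Dashed blue bars give the WT background for each gene's exonic length. WT globin points lie near or below the bars, and Car2 points of both genotypes lie far above them.

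**Figure D2:**
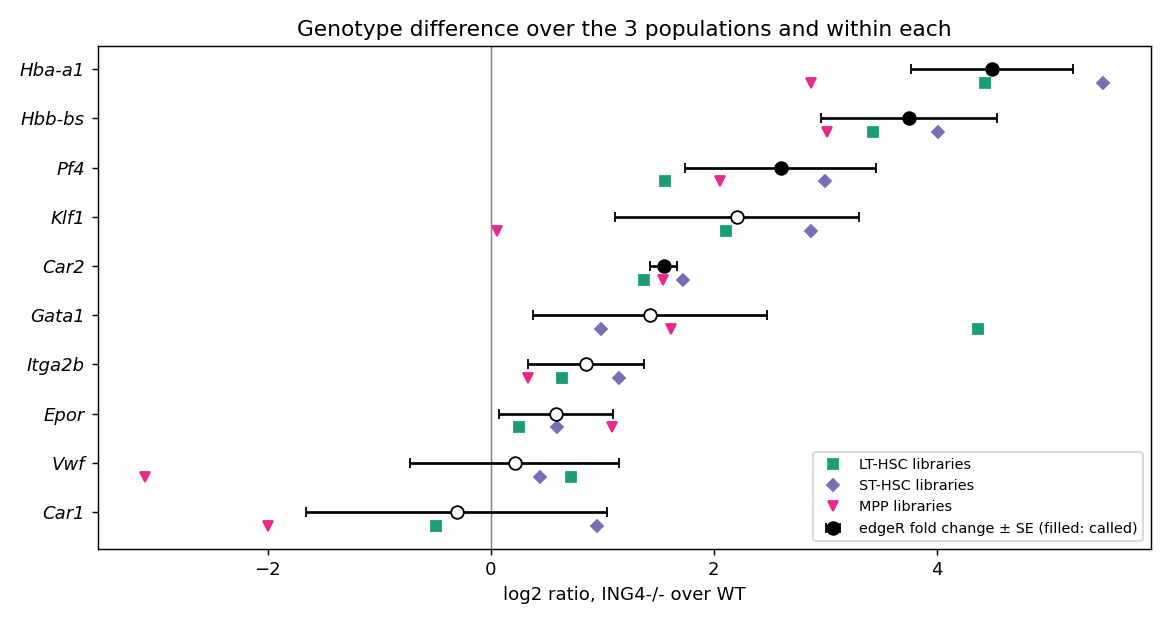
Log2 ratio of ING4-/- over WT for each gene. Circles with bars are the edgeR log2 fold change over the 3 populations ± SE (filled where called), and coloured marks are the ratio within LT-HSCs, ST-HSCs and MPPs, each from 1 library per genotype. Vwf and Car1 have MPP marks at -3.10 and -2.00, left of 0.

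Gata1, the master factor of both lineages, lies at chrX:7959260-7978071 on the minus strand. Its level was 1.79, 60.9 and 22.3 CPM in WT. In ING4-/- it was 38.8, 121 and 68.4 CPM. ST-HSCs were the highest and LT-HSCs the lowest population in both genotypes, and the ING4-/- LT-HSC level fell inside the WT range. The log2 fold change of 1.43 (SE 1.05, edgeR adjusted p = 0.276) was not called. The WT LT-HSC value rests on 17 counts, with an exact Poisson 95% interval of 9.90 to 27.2, below the 54.6 that background would give. WT ST-HSCs had 566 counts and WT MPPs 227, which were 10.2 and 5.14 times background.

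Klf1, the erythroid CACCC-binding factor, lies at chr8:84901928-84905291 on the plus strand. Its level stepped down along the sorted hierarchy in both genotypes, at 15.0, 5.49 and 3.14 CPM in WT and 64.9, 40.7 and 3.27 CPM in ING4-/-. The LT-HSC and ST-HSC levels of ING4-/- stood above all WT levels, while the MPP levels lay side by side, with a ratio of 1.04. The log2 fold change of 2.21 (SE 1.09, edgeR adjusted p = 0.117) was not called, and it was called at 2.77 (adjusted p = 0.0162) with ING4-/- MPPs left out. Across all alternatives the adjusted p ran from 0.0162 to 0.299. WT counts of 51 in ST-HSCs and 32 in MPPs were 1.47 and 1.16 times background, and the Poisson interval of the MPP count, 21.9 to 45.2, held the 27.7 that background would give.

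Epor, the erythropoietin receptor, lies at chr9:21958897-21963506 on the minus strand. It was measured at 20.01, 21.3 and 9.22 CPM in WT. The ING4-/- levels were 24.0, 32.4 and 19.7 CPM. Both genotypes ran ST-HSC, LT-HSC, MPP from high to low, and the ranges overlapped. Epor was not called, at a log2 fold change of 0.59 (SE 0.511, edgeR adjusted p = 0.353). Its WT counts of 190, 198 and 94 were 4.26, 4.38 and 2.61 times background.

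Car2, a carbonic anhydrase of red cells that is also used by early progenitors, lies at chr3:14886273-14900770 on the plus strand. It was by far the most abundant of the 10. WT levels were 1312, 1178 and 1146 CPM and ING4-/- levels were 3406, 3906 and 3352 CPM. The WT mean was 1212 ± 88.3 and the ING4-/- mean 3555 ± 306 CPM (SD, n = 3 populations each), with no overlap and little spread in either group. The log2 fold change was 1.55 (SE 0.120, edgeR adjusted p = 6.57e-04), a fold of 2.93. WT counts were 199 to 266 times background. Subtracting background therefore barely changes its counts, but it also changes the genes tested and their scaling, and under it the log2 fold change of Car2 was 0.74 (adjusted p = 0.0022), under the size needed for a call. Pf4 at 1.80, Itga2b at 0.11 and Car1 at -1.04 were lower by a like amount in that setting. The other genes were not. Gata1 at 0.77, Epor at 0.17 and Vwf at 0.038 were lower by less, and Klf1 at 2.19 hardly moved. Hba-a1 at 6.60 and Hbb-bs were higher. The adjusted p of Car2 over all alternatives ran from 8.07e-06 to 0.00922.

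Car1, the neighbouring carbonic anhydrase gene at chr3:14766216-14808368 on the minus strand, was not called by genotype and differed more between populations. Its levels were 144, 17.8 and 10.4 CPM in WT. In ING4-/- they were 103, 34.4 and 2.54 CPM. LT-HSCs were highest and MPPs lowest in both genotypes, and ING4-/- was above WT in ST-HSCs and below it in LT-HSCs and MPPs. The log2 fold change by genotype was -0.30 (SE 1.35, edgeR adjusted p = 0.863), and it read 0.30 under upper-quartile normalization. The longest reading frames of Car1 and Car2 were 67.0% identical.

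The adult globin genes held the largest differences. Hba-a1, an alpha-globin gene at chr11:32283511-32284465 on the plus strand, had 11, 11 and 21 counts in WT and 842, 1812 and 531 counts in ING4-/-. As levels these were 1.16, 1.18 and 2.06 CPM against 26.9, 57.3 and 15.7 CPM. All ING4-/- values were far above all WT values, and the log2 fold change was 4.50 (SE 0.725, edgeR adjusted p = 0.00113). Hbb-bs, a beta-globin gene at chr7:103826534-103828096 on the minus strand, had 11, 16 and 8 counts in WT and 420, 923 and 239 counts in ING4-/-. Its levels were 1.16, 1.72 and 0.785 CPM against 13.4, 29.2 and 7.05 CPM. The groups again did not overlap, and the log2 fold change was 3.75 (SE 0.789, edgeR adjusted p = 0.00383). For both genes ST-HSCs were highest and MPPs lowest in ING4-/-.

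The WT counts of Hba-a1 and Hbb-bs lay within counting error of background. Background would give Hba-a1 18.2, 18.5 and 14.7 counts and Hbb-bs 17.2, 17.5 and 13.9 counts in the 3 WT libraries, and every one of these lay inside the Poisson interval of the count measured. By this measure WT expression of these 2 genes was not detectable at this depth, and their folds are against counts of background size. The measure need not hold for each gene, and it was too high for Hba-a2. The part of background in the difference was not tested. In the ING4-/- libraries Hba-a1, Hba-a2, Hbb-bs and Hbb-bt together took 0.00719% to 0.0110% of counts, against 0.000408% to 0.000770% in WT.

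The sister globin genes showed the same split. Hba-a2 had 4, 0 and 1 counts in WT and 299, 438 and 142 in ING4-/- (log2 fold change 5.68, SE 1.21, edgeR adjusted p = 0.00403). Background would give it 14.9, 15.2 and 12.1 counts in WT, above the upper Poisson limits of 10.2, 3.69 and 5.57. The background density was thus too high for this gene. Hbb-bt had 6, 35 and 25 counts in WT, where background would give 15.8, 16.0 and 12.7, and 1033, 972 and 1907 in ING4-/- (log2 fold change 4.13, SE 0.778, edgeR adjusted p = 0.00225). Unlike Hbb-bs, Hbb-bt was highest in ING4-/- MPPs, so Hbb-bs made up 28.9%, 48.7% and 11.1% of the Hbb-bs and Hbb-bt counts in ING4-/- LT-HSCs, ST-HSCs and MPPs. The reading frames of Hba-a1 and Hba-a2 shared 428 of 429 bases and those of Hbb-bs and Hbb-bt 443 of 444. How reads that fit both copies were counted is not given in the sources used here, so the division within each pair is uncertain.

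Markers of mature red cells did not all go with the globins. The 6 such genes in the files, Hba-a1 and Hbb-bs included, summed to 30.0, 36.8 and 37.5 CPM in WT and to 59.8, 112 and 24.6 CPM in ING4-/-. Most of each ING4-/- sum came from Hba-a1 (26.9, 57.3 and 15.7 CPM) and Hbb-bs (13.4, 29.2 and 7.05 CPM). The sums therefore do not describe the other genes of the list. Alas2, the erythroid heme synthesis enzyme, had 0 counts in all 3 ING4-/- libraries. Slc4a1, the anion exchanger, had 0, 416 and 0 counts there. It was highest in the ING4-/- ST-HSC library, where Hba-a1 and Hbb-bs were also highest. Marrow was lineage-depleted before the sort, with red cells among the lineages gated out, and the study's marrow protocol has a red cell lysis step. The part of red cell RNA in the globin difference was not tested.

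Itga2b, the integrin chain known as CD41, lies at chr11:102453297-102470122 on the minus strand. Its levels were 123, 239 and 125 CPM in WT and 193, 530 and 158 CPM in ING4-/-. ST-HSCs were highest in both genotypes, by 1.94 times over LT-HSCs in WT and 2.75 times in ING4-/-. The groups overlapped, and the log2 fold change of 0.85 (SE 0.518, edgeR adjusted p = 0.191) was not called. Under upper-quartile normalization it was called at 1.46 (adjusted p = 0.0425), and over all alternatives the adjusted p ran from 0.0369 to 0.896.

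Pf4, the platelet factor 4 chemokine, lies at chr5:90772435-90773383 on the plus strand. Its levels were 21.1, 48.4 and 15.6 CPM in WT and 62.6, 389 and 65.2 CPM in ING4-/-. Every ING4-/- level was above every WT level, and the ST-HSC level stood 6.21 times above the LT-HSC level in ING4-/- and 2.30 times above it in WT. Pf4 was called at a log2 fold change of 2.60 (SE 0.856, edgeR adjusted p = 0.0300). The call was lost without WT LT-HSCs (2.30, adjusted p = 0.0955), without WT MPPs (2.13, adjusted p = 0.118) and without ING4-/- ST-HSCs (1.20, adjusted p = 0.0932), and the adjusted p over all alternatives ran from 0.0111 to 0.133. WT counts were 12.2 to 27.4 times background.

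Genes of mature megakaryocytes and platelets were high in the same ST-HSC library. The 7 genes of that list, Pf4 included, summed to 60.6, 102 and 67.8 CPM in WT and to 96.3, 574 and 102 CPM in ING4-/-. Treml1, a platelet receptor gene, had 2, 1901 and 169 counts and Gp1ba, a von Willebrand factor receptor gene, had 2, 688 and 0 counts in ING4-/-. Gp6, the platelet collagen receptor gene, was at 0 in all 3 ING4-/- libraries. The part of megakaryocyte or platelet RNA in the Pf4 and Itga2b values was not tested.

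Vwf, von Willebrand factor, lies at chr6:125546774-125686679 on the plus strand. Its levels were 149, 72.6 and 83.6 CPM in WT and 246, 98.8 and 9.70 CPM in ING4-/-. LT-HSCs were highest in both genotypes, and the ING4-/- MPP level stood far below all others. Vwf had a log2 fold change of 0.22 (SE 0.937, edgeR adjusted p = 0.859), and it read -0.12 with median-of-ratios size factors or DESeq2, -0.29 with 10 counts asked of every library and -0.50 with population as a block. The gene is long, and its WT counts of 1418, 674 and 852 were 3.94, 1.84 and 2.93 times background. Vwf is also made by endothelium, and a list of 10 endothelial genes summed to 682, 563 and 677 CPM in WT and 1442, 841 and 888 CPM in ING4-/-. Cdh5, which defines endothelium, had 39, 150 and 0 counts in ING4-/-. The part of endothelial RNA in the Vwf values was not tested.

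The next comparison asked how the 10 genes differed between populations with genotype kept in the model. No gene of 31001 was called by edgeR in any of the 3 contrasts (0% each). An unadjusted p under 0.05 was reached by 561 genes between LT-HSCs and MPPs, 187 between ST-HSCs and MPPs and 616 between LT-HSCs and ST-HSCs. DESeq2 called 308 genes (1.20% of 25591), 0 genes and 176 genes in the same order. The values of the 10 genes are given as sizes and unadjusted p, none of which passed the correction in edgeR.

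Car1 had the largest log2 difference of the 10 between LT-HSCs and MPPs. Its LT-HSC levels were 13.9 times above MPPs in WT and 40.6 times in ING4-/-, and the log2 difference was 4.38 (SE 0.866, edgeR unadjusted p = 0.00335, adjusted p = 1). DESeq2 gave 4.56 with an adjusted p of 0.00869, and called 0.676% of genes higher and 0.528% lower in LT-HSCs. Over all alternatives the adjusted p of Car1 ran from 0.00869 to 1. Klf1 was 4.76 times higher in LT-HSCs than in MPPs in WT and 19.8 times in ING4-/- (log2 difference 3.08, SE 1.10, edgeR unadjusted p = 0.0354). Vwf was 1.79 times higher in WT and 25.4 times in ING4-/- (log2 difference 2.36, SE 1.06, edgeR unadjusted p = 0.0737). Without ING4-/- MPPs these differences were 3.48 for Car1, 2.07 for Klf1 and 0.91 for Vwf, and without WT MPPs they were 5.77, 4.54 and 4.63, the lowest and highest values with single libraries left out. Whether these folds differed between genotypes was not tested, since each rests on 1 library per cell of the design.

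A second set of genes peaked in ST-HSCs. Pf4 was 2.16 (SE 0.428, edgeR unadjusted p = 0.00339) and Itga2b 1.35 (SE 0.265, edgeR unadjusted p = 0.00327) above MPPs on the log2 scale. Against ST-HSCs, LT-HSC levels of Pf4 differed by -1.94 (SE 0.429, edgeR unadjusted p = 0.00546) and those of Itga2b by -1.22 (SE 0.263, edgeR unadjusted p = 0.00489). Gata1 differed by -3.08 (SE 0.982, edgeR unadjusted p = 0.0239) between LT-HSCs and ST-HSCs. Without the WT LT-HSC library, whose count lay below background, it differed by -1.74 (SE 0.494, edgeR adjusted p = 0.507). The 3 contrasts share libraries, so these values are not independent of each other.

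The order of populations can be read in each genotype without a model. Of the 10 genes, 9 had 10 or more counts in each library. Car1 and Klf1 ran LT-HSC, ST-HSC, MPP from high to low in both genotypes, as did 2.78% of the 9673 genes with as many counts. Gata1, Pf4, Epor and Itga2b were highest in ST-HSCs in both, as were 9.83% of those genes. Car2 differed little, with at most 1.17 times between its highest and lowest population in either genotype.

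**Figure D3:**
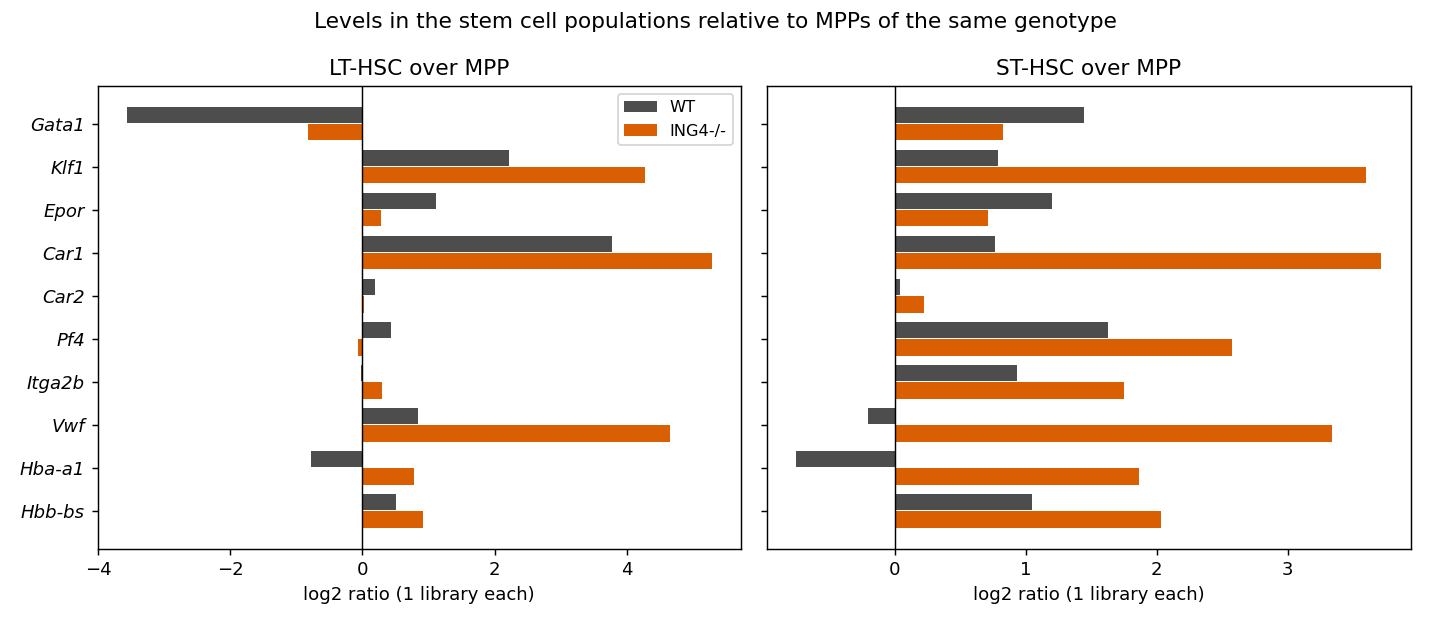
Log2 ratio of LT-HSCs over MPPs (left) and of ST-HSCs over MPPs (right) for the 10 genes, WT as grey bars and ING4-/- as orange bars, each bar from 1 library over another with no error. Car1, Klf1 and Vwf have long LT-HSC bars in ING4-/-, and Pf4 and Itga2b have longer ST-HSC than LT-HSC bars in both genotypes.

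Divided by exonic length, the levels could be ordered between genes. In WT the order of mean CPM per kb was Car2, Car1, Pf4, Itga2b, Gata1, Epor, Vwf, Klf1, Hba-a1 and Hbb-bs, from 501 ± 36.5 for Car2 to 1.59 ± 0.615 for Hbb-bs (SD, n = 3 populations). In ING4-/- the order was Car2, Pf4, Itga2b, Hba-a1, Car1, Gata1, Klf1, Hbb-bs, Epor and Vwf, from 1468 ± 126 for Car2 to 7.36 ± 7.43 for Vwf. Car2 stood clear of its next neighbour in both genotypes. Every other pair of neighbours overlapped, so no further order held beyond the spread between populations. In rank alone the largest move was that of Hba-a1, from the ninth place to the fourth, but its WT counts were of background size.

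Other genes of the same programs were taken from lists written with earlier results of these data known. Among 17 transcription factors of the erythroid and megakaryocyte lineages, Gata1 and Klf1 included, 5 were called higher and 1 lower. Over all genes 7.98% were higher and 56.7% lower. The median log2 fold change of the list was 0.69 where all genes had -6.85. With 10 counts asked of every library it was 0.29 where all genes had 0.020. Tal1, the partner of GATA1 in erythroid complexes, was at 165, 198 and 132 counts in WT and 2531, 2515 and 2037 in ING4-/- (log2 fold change 2.09, SE 0.337, edgeR adjusted p = 0.00112). Lyl1, its close relative, changed by 1.70 (SE 0.497, adjusted p = 0.0184). Sox6, which helps silence embryonic globin, fell by 1.99 on the log2 scale (SE 0.644, adjusted p = 0.0283).

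Of 17 red cell surface and skeleton genes 16 could be tested, Epor included, and 0 were called higher by edgeR and 7 lower, where 56.7% of all genes were lower. Their median log2 fold change was -2.08, against -6.85 over all genes. With 10 counts asked of every library it was 0.053, against 0.020 over all genes. Ermap and Kel, which encode blood group proteins, had 0 counts in all 3 ING4-/- libraries. Their WT means were 208 and 98.1 times a floor of 3 counts per library. Their WT counts were 0.921 to 2.19 and 1.08 to 1.82 times background, so these ratios hold background and are no bound on a genotype difference. Globin, heme and carbonic anhydrase genes, Car1, Car2, Hba-a1 and Hbb-bs included, were called higher for 9 of 18 tested and lower for 3, with a median of 1.14. Over all genes 7.98% were higher. Besides the globins and Car2, the heme enzyme genes Alad and Urod and the reductase gene Blvrb were called higher. Alas2 and the embryonic globin gene Hbb-y were at 0 in ING4-/-, and their WT means were 73.1 and 23.3 times the same floor. WT counts of Alas2 were 0.780 to 1.93 times background and those of Hbb-y 3.38, 0.486 and 0.611 times. These ratios to the floor are no bound either.

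Megakaryocyte genes were divided. Of 14 receptors and adhesion proteins, Itga2b and Vwf included, 2 were called higher (Gp1bb and Gp5, chains of the receptor for von Willebrand factor) and 2 lower (Gp6 and P2ry12). Over all genes 7.98% were higher and 56.7% lower. The median of the list was -0.42, and it turned to 0.19 under upper-quartile normalization. Gp1bb had 0, 3 and 0 counts in WT and 59, 771 and 101 in ING4-/-. Gp6 and P2ry12, the platelet ADP receptor, were at 0 in ING4-/-. Their WT means were 168 and 34.1 times a floor of 3 counts per library. WT counts were 0.835 to 1.99 and 0.432 to 0.694 times background, so these ratios are no bound on a genotype difference. Of 12 granule and cytoplasmic proteins, Pf4, Rgs18 and Gng11 were called higher and Thbs1 lower. Their median was 0.39, and it turned to -0.11 without ING4-/- LT-HSCs. Gng11, a G protein subunit, changed by 2.29 (SE 0.430, edgeR adjusted p = 0.00222) and Thbs1, a matrix protein of platelet granules, by -4.79 (SE 1.77, adjusted p = 0.0464).

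Lists for the other cells a marrow sort can hold were read the same way, beside the 7.98% higher and 56.7% lower over all genes. Among 5 sort markers Ly6a, which encodes Sca1, was called higher. Of 11 granulocyte and monocyte genes 3 were called higher and 2 lower, of 9 B cell genes 1 and 6, and of 8 T and NK cell genes 0 and 4. Of 10 endothelial genes 2 were called higher and 1 lower, of 7 mature megakaryocyte genes 2 and 1, and of 6 mature red cell genes 2 and 1. The higher calls in the mature red cell list were Hba-a1 and Hbb-bs, and those in the mature megakaryocyte list were Pf4 and Gp5. Summed, the B cell genes stood at 110 to 141 CPM in WT and 70.3 to 125 in ING4-/-, where 6 to 7 of the 9 had no count.

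The profiles most like those of the 10 genes were sought among 9016 protein-coding genes over the 6 libraries, as a description in which all points share depth and background with genotype. The closest 3 were Wipf1, Dek and Snrpa1 for Gata1 (highest Pearson r 0.995), Alg11, Selenom and Med20 for Klf1 (0.996), and Rhebl1, Mpp7 and Klhl23 for Epor (0.994). They were Mtss1l, Scyl3 and Uba7 for Car1 (0.997), Snrpg, Fam104a and Myl6 for Car2 (0.999), and Tfg, Cln6 and Ap2m1 for Hba-a1 (0.999). For the megakaryocyte genes they were Ddx28, Prpf6 and Ppp1r2 for Pf4 (0.983), Tuba8, Zdhhc12 and Mis12 for Itga2b (0.994), and Peli2, Arhgef15 and Ttc30b for Vwf (0.994). No member was among the closest 3 of another. Hbb-bs was left out because its WT MPP count was 8.

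The genotype difference was recomputed under other scalings, filters and tests. Among the 9 members that had 10 or more counts in each library, Car2 and Hba-a1 were called higher when only such genes were tested, where 8.30% of genes were higher and 9.68% lower (18.0% in all). With background subtracted, Hba-a1 and Hbb-bs were called higher, where 5.61% of genes were higher and 38.7% lower (44.3% in all). Hba-a1 and Hbb-bs were called in all alternatives in which they were tested, with a log2 fold change of at least 3.87 and 3.09. After subtraction the WT counts of Hbb-bs came to 0, so its fitted value of 11.28 depends on the prior count and is no bound. Epor stayed between 0.053 and 1.19 and was not called in any alternative.

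**Figure D4:**
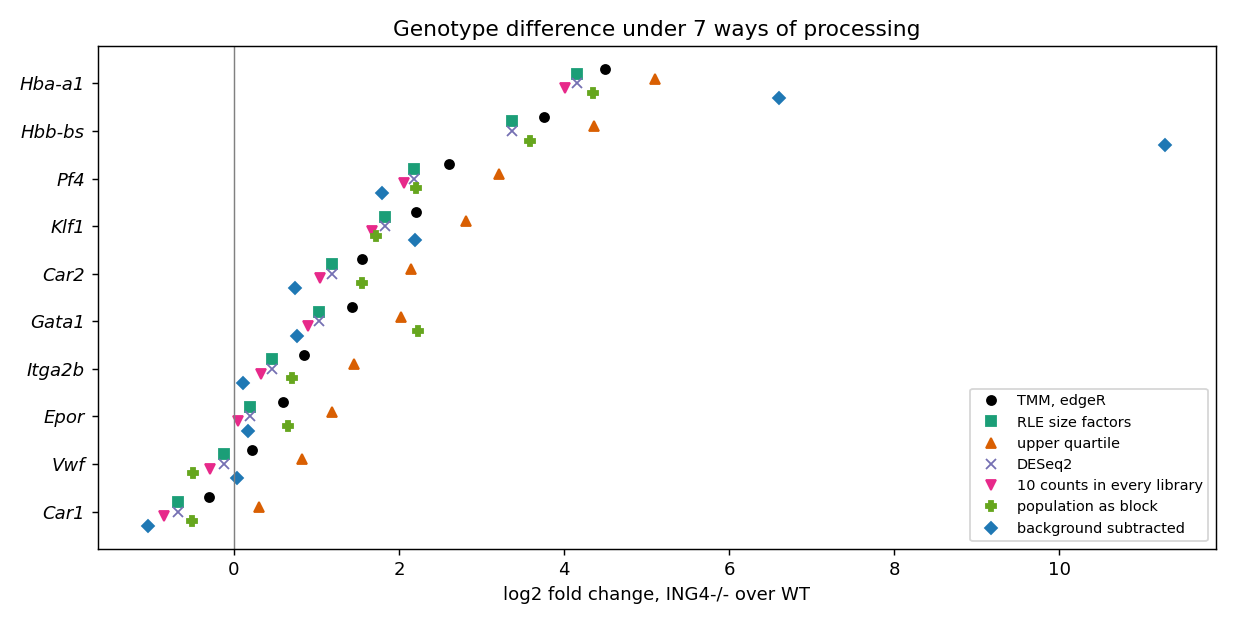
Log2 fold change of ING4-/- over WT for each gene under 7 ways of processing, 1 mark per way. The order of the genes along the axis is largely kept, Vwf and Car1 lie on either side of 0, and the background-subtracted marks of the globins lie far to the right.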

How the data were processed

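Bulk RNA-seq was analysed for 6 libraries, with genotype and population taken from the sample titles. The authors deposited raw counts of reads per gene with no normalization, made by a sequencing company. The submitters' processing notes name the build mm10, and the aligner, counting program and strand setting are not given in the sources used here. Symbols, positions and exonic lengths came from GENCODE M21 (GRCm38), in which 49056 of 49315 gene IDs were found and 259 were not.

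Genotypes were compared over all 6 libraries by the quasi-likelihood F test of edgeR 4.0.16 under R 4.3.3, after filterByExpr grouped by genotype and scaling by TMM, with p-values adjusted by the Benjamini-Hochberg method over all genes tested and calls made at an adjusted p under 0.05 with an absolute log2 fold change over 1. Population contrasts used the same test with genotype and population in the model, and no test was made within a population, where each genotype has 1 library. Each standard error was derived from the F statistic, as the size of the log2 fold change over its square root. Log2 ratios within a population used a prior count of 2. DESeq2 1.42.0 was the other test. Fits were tested on simulated data. Background was the count per kb of exon over olfactory and vomeronasal receptor genes of the same library. Poisson intervals (exact, 95%) and the floor of 3 counts cover counting error only, since reads without molecular identifiers are not independent molecules.

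The deviations of 2 libraries of 1 population from their genotype means were correlated over 9673 genes, with r = 0.143 (LT-HSC), 0.110 (ST-HSC) and 0.121 (MPP). Population therefore pairs the libraries, and it entered as a block in an alternative fit. The other alternatives were other scalings, other filters on low counts, DESeq2, background subtraction and leaving out each library. The members and all lists were chosen with earlier results of these data known. Named genes were the 10 members, Ing4, Hba-a2 and Hbb-bt, per list the called genes with the 3 largest absolute log2 fold changes, and for each member the 3 genes of most similar profile. Other list genes (Alad, Urod, Blvrb, Rgs18, Gp5, Slc4a1, Treml1, Gp1ba, Cdh5, Kit, Cd34 and Cd48) were named after their values were seen. Some list genes that these rules would name are not reported here. Promoter windows were RefSeq sequences of GRCm38.p6.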

Additional observations from a re-analysis of the deposited data

Results flagged for a closer look

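The ratio of ING4-/- over WT went in different directions in different populations for 2 of the 10 genes. For Car1, the carbonic anhydrase gene that was high in LT-HSCs, the log2 ratio was 0.95 in ST-HSCs but -0.49 in LT-HSCs, and it reached -2.00 among MPPs. For Vwf it was 0.72 and 0.44 in the LT-HSC and ST-HSC populations and -3.10 in MPPs. Each ratio compares 1 library with 1 library, so the differences between populations were not tested. The WT counts behind the MPP ratios were 106 for Car1 and 852 for Vwf, where background would give 22.6 and 291, and the part of background in them was not tested.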

How the results depend on the processing

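With population as a block, 18879 genes were called against 20041. The block, which uses the pairing of libraries by population, kept the calls of Car2 (1.55), Pf4 (2.21), Hba-a1 (4.35) and Hbb-bs (3.59), turned Vwf to -0.50 (edgeR adjusted p = 0.646), moved the median of the red cell membrane list to -4.87 and changed no call of a member. Asking 10 counts of every library left 1739 calls of 9673 genes (803 higher, 936 lower) and 2 calls between LT-HSCs and MPPs. Background subtraction left 8754 calls (1108 higher, 7646 lower), and DESeq2 gave 308 calls between LT-HSCs and MPPs. The median log2 fold change of all genes was -6.85 with TMM, -7.17 with median-of-ratios (RLE) size factors and -6.35 with upper-quartile normalization. It was 0.020 with 10 counts asked of every library and -0.93 with background subtracted, so it depends on the genes that enter.

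For single genes by genotype, Pf4 lost its call with RLE size factors (2.19, edgeR adjusted p = 0.0524), with 10 counts in every library (2.06, adjusted p = 0.0871) and with background subtracted (1.80, adjusted p = 0.133), and Car2 with background subtracted (0.74). Itga2b was called under upper-quartile normalization (1.46), which also turned Car1 to 0.30. Vwf read -0.12 with RLE size factors and with DESeq2 and -0.29 with 10 counts in every library. Leaving out 1 library at a time gave ranges of 1.20 to 3.13 for Pf4, 1.51 to 3.03 for Klf1, 0.77 (without WT LT-HSCs) to 2.65 (without WT ST-HSCs) for Gata1, 0.14 (without ING4-/- ST-HSCs) to 1.18 for Itga2b, -1.61 to 1.70 for Car1 and -0.88 to 0.78 for Vwf. Car1 was positive without WT LT-HSCs or without ING4-/- MPPs.

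Between populations, DESeq2 called Car1 higher in LT-HSCs than in MPPs (4.56). Differences near 0 changed sign. Hba-a1 between LT-HSCs and MPPs read 0.0044 with RLE size factors, 0.032 with 10 counts in every library and 0.035 with DESeq2, and with background subtracted it was -1.60 between ST-HSCs and MPPs. Car2 between LT-HSCs and ST-HSCs read 0.024 with RLE size factors and DESeq2 and 0.018 with 10 counts in every library. With single libraries left out, LT-HSC over MPP ran from -0.17 to 0.66 for Pf4, -1.08 to 1.09 for Hba-a1 and -0.14 to 0.45 for Itga2b. LT-HSC over ST-HSC ran from -0.49 to 0.037 for Epor, -0.074 to 0.12 for Car2, -0.091 to 2.30 for Vwf and -1.28 to 0.45 for Hba-a1. ST-HSC over MPP ran from -0.048 to 1.98 for Gata1, -0.012 to 0.22 for Car2, -0.50 to 1.62 for Hba-a1 and -0.27 to 3.41 for Vwf.

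The median of the transcription factor list was 0.33 with RLE size factors and DESeq2, 1.28 with upper-quartile normalization, 0.29 with 10 counts in every library, 0.37 with background subtracted and 0.63 to 0.90 with single libraries left out. That of the globin, heme and carbonic anhydrase list was 0.77, 1.74, 0.61 and 0.58 in the same settings. That of the red cell membrane list was -1.48 with upper-quartile normalization, 0.053 with 10 counts in every library, -0.36 with background subtracted and -3.00 to -1.95 with single libraries left out. That of the megakaryocyte receptor list was -0.79 with RLE size factors, 0.19 with upper-quartile normalization and -1.19 with population as a block. That of the megakaryocyte granule list was 0.030 with RLE size factors, 0.999 with upper-quartile normalization and -0.11 without ING4-/- LT-HSCs. With 10 counts in every library these 2 medians were 0.093 and 0.11, where all genes had 0.020. The causes were not tested, except that fewer genes enter with 10 counts in every library. WT depth and background limit what can be said of Hba-a1 and Hbb-bs in WT. The same holds for Klf1 in WT MPPs and for Gata1 in WT LT-HSCs.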
